A study of Homo sapiens with 6 samples.

Results

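Respiratory complex I was followed in RNA-sequencing values of H1975 cells through 48 nuclear genes, 36 that encode subunits and 12 that encode assembly factors. The members were taken by gene symbol, a rule that reads no values, and all 48 were found among the 27216 rows of the deposited table. H1975 is a human line of non-small cell lung cancer that carries mutant EGFR, although its genotype is labelled WT, and Osi is osimertinib, an inhibitor of the EGFR kinase. The 3 parental samples are labelled as Osi at 1000 nM for 0 h and the 3 adapted samples as Osi at 1000 nM for 72 h. DMSO appears in the names of the parental columns, and it is not stated if these cells were untreated or kept in DMSO, so time in culture and treatment cannot be told apart. The extraction protocol in the labels says that dying cells were rinsed off first, so the adapted group is made of the cells that remained. The labels also describe RNase R digestion, which removes linear RNA, while the study's methods do not. In bulk RNA, a change in the mix of cells and a change of RNA per cell cannot be told apart. Nothing in the labels says that replicates were separate cultures, so p-values measure the spread between these samples, which may be technical. The 5 other rows of the table with NDUF symbols lie outside the member list.

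Complex I is the entry point of the mitochondrial respiratory chain and its largest enzyme. Its N module takes electrons from NADH and passes them along iron-sulfur clusters, its Q module hands them to ubiquinone, and its membrane arm pumps protons. The core of the membrane arm is encoded by mitochondrial DNA, all other subunits are nuclear, and assembly factors join the modules without remaining in the finished enzyme. In lung cancer cells, as in other tissues, the complex supplies both ATP and the NAD+ needed for biosynthesis.

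Values are log2(FPKM + 1), FPKM being fragments relative to the length of the transcript and to the mapped fragments in all. The scale was taken from the values and not from a label. The depth of the samples is unknown, and on the linear scale a sample's values added up to 375342 at the lowest and 387753 at the highest. Adapted replicate 1 stood apart from the other adapted samples. Across the 12656 tested rows its correlation was 0.978 to replicate 2 and 0.977 to replicate 3, against 0.992 between these. Its correlation to each parental sample was 0.925, against 0.896 to 0.897 for adapted replicates 2 and 3, so it lay nearer to the parental group. The epithelial markers EPCAM, KRT7, KRT8 and KRT18 lay between 7.30 and 10.6 in every sample, but 3 of them differed between the groups, KRT7 by 1.07 (limma, adjusted p = 0.00022), KRT18 by -0.57 (adjusted p = 0.0043) and KRT8 by -0.28 (adjusted p = 0.048). KRT8 lost this call in each fit that left out a sample other than adapted replicate 1 (adjusted p 0.111 to 0.134). Of 9 markers of other cell types, 2 passed the filter on low values and CD3E was listed at 0 in all 6 samples. The summed FPKM of these 9 was 80.9, 78.7 and 79.4 in parental and 38.0, 26.8 and 29.8 in adapted samples. Most of this was CD68, a lysosomal gene, which fell from between 6.22 and 6.27 to between 3.96 and 4.93. PTPRC, COL1A2 and DCN were at most 0.11 and VWF at most 0.34. Other markers moved with the groups. The fibroblast gene COL1A1 rose by 1.12, from between 1.99 and 2.04 to between 2.97 and 3.28 (limma, adjusted p = 7.8e-05), and the summed FPKM of the 3 fibroblast markers was 3.0, 3.11 and 3.11 in parental and 6.95, 8.75 and 8.02 in adapted samples. The endothelial genes CDH5 and PECAM1, which did not pass the filter, were at 0.16 to 0.27 and 1.0 to 1.40 in parental and at 1.19 to 2.08 and 0.07 to 0.11 in adapted samples. The part of these cell types in the results was not tested.

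All 48 genes passed the filter on low values, a mean of at least 1 over the 6 samples. As deposited, 22 differed between the groups, 15 higher and 7 lower in adapted cells (limma, adjusted p under 0.05). Over all 12656 rows tested, 56.9% differed, 30.7% higher and 26.2% lower, so that the 31.2% of complex I genes called higher is close to the background and the 14.6% called lower is under it. The median log2 fold change of the 48 genes was 0.02, against 0.03 for all rows, and it changed sign after quantile normalization, after centring on the sample median and without parental replicate 1, parental replicate 3, adapted replicate 1 or adapted replicate 2 (-0.01, -0.01, -0.01 and -0.03). The 3 adapted values lay wholly above or below the 3 parental values in 27 of the 48 genes, against 66.3% of all rows tested. An exact permutation test of 3 samples against 3 cannot go below p = 0.1. The count of lower genes depended on single samples. It was 13 without adapted replicate 1, and it was 4, 1, 2 and 4 without parental replicate 2, parental replicate 3, adapted replicate 2 and adapted replicate 3.

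Of the 36 subunits, 13 were called higher (36.1%) and 3 lower (8.33%), with a median log2 fold change of 0.04. Of the 12 assembly factors, 2 were called higher (16.7%) and 4 lower (33.3%), with a median of -0.06. Over all rows tested the shares called higher and lower were 30.7% and 26.2%. Of the 13 calls of a rise in subunits, 11 were in genes whose adapted values carry a constant, described next, and among genes without a constant in either group 2 of 23 subunits and 2 of 12 assembly factors were called higher. The summed FPKM of the 12 assembly factors was 178.6, 180.2 and 178.1 in parental and 180.6, 172.0 and 162.2 in adapted samples, which overlap. The counts moved with single samples. Without parental replicate 3 no assembly factor was called higher and 1 lower, and no subunit was called lower, while without adapted replicate 1 the subunits had 8 called lower and the factors 5. Without adapted replicate 2 the classes had 1 gene each called lower. The factors had 1 called lower without adapted replicate 3 and 2 without parental replicate 1 or 2, and the subunits 2 without parental replicate 2. The difference between the 2 classes was not tested.

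In 13 of the 48 genes, the deposited values of 1 of the groups did not have the decimal form that nearly all other values have. For 27069 rows, 2 to the power of each value, minus 1, was a number with 6 decimals, called here the grid. The remaining 147 rows met this in 1 group and missed it in all 3 samples of the other. In 11 complex I genes the adapted values were off this grid and returned to it when 0.66 was subtracted on the log2 scale. These genes are NDUFV2, NDUFS4, NDUFS6, NDUFA6, NDUFA7, NDUFS7, NDUFA9, NDUFA8, NDUFC2, NDUFB3 and NDUFAB1. In NDUFS1 and NDUFB2 it was the parental values, which returned when 0.2 was subtracted. The 13 genes are 27.1% of the 48, against 1.11% of all rows tested, and all of them encode subunits. None of the 12 assembly factors was off the grid.

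The 11 genes with 0.66 in the adapted values were the 11 largest log2 fold changes of the 48. They were all called higher as deposited, by 0.75 to 1.37. All 11 kept this call in each of the 6 fits that left out a sample. These fits used the deposited values, with 0.66 in every adapted sample, so they do not show how stable a rise without the constant is. Their summed FPKM was 306.7, 293.1 and 276.5 in parental and 587.6, 594.7 and 599.8 in adapted samples. With 0.66 subtracted the adapted sums were 367.9, 372.3 and 375.5, which still lay above the parental sums. The log2 fold changes were then 0.09 to 0.71, with a median of 0.28 in place of 0.94, and all 11 remained positive. NDUFV2, NDUFA7, NDUFS7, NDUFA8, NDUFC2 and NDUFB3 were still called higher, and NDUFS4, NDUFS6, NDUFA6, NDUFA9 and NDUFAB1 were not. Over the 48 genes the calls were then 10 higher and 7 lower, against 30.3% and 26.0% of all rows.

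Of all 12515 tested rows on the grid, 3773 were called higher and 3296 lower, with a median log2 fold change of 0.02. Of the 35 complex I genes on the grid, 4 were called higher (11.4%) and 7 lower (20.0%). Their log2 fold changes were positive in 14 and negative in 21, with a median of -0.08. Without parental replicate 3 these counts were 2 higher and 1 lower, without adapted replicate 1 they were 4 and 11, without adapted replicate 2 they were 4 and 2, without adapted replicate 3 they were 3 and 4, and without parental replicate 2 they were 4 and 4. The summed FPKM of the 35 genes was 1097, 1082 and 1094 in parental and 1112, 1048 and 1006 in adapted samples, and these ranges overlap. Restricting the list to the grid drops 11 genes with positive and 2 with negative log2 fold changes, with or without the constants, which lowers the median by construction.

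**Figure D1:**
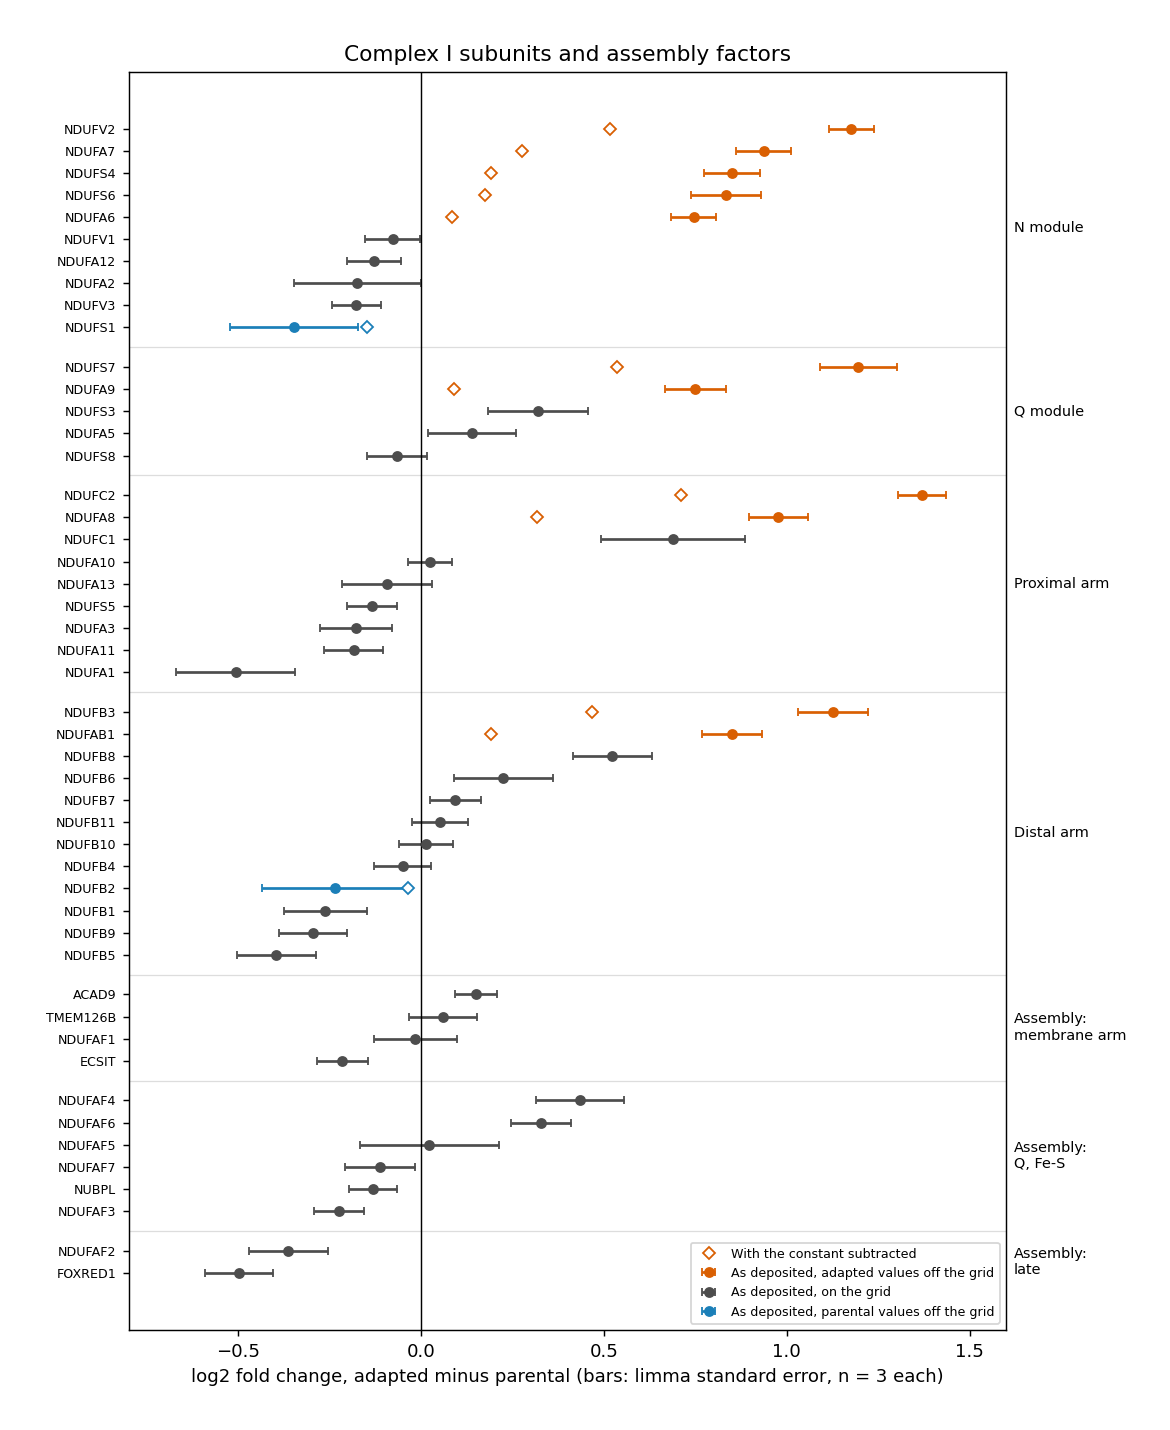
Log2 fold change of the 48 genes (x axis, adapted minus parental, log2(FPKM + 1)), grouped by module and assembly step, with bars for limma's standard error (n = 3 each). Filled points are values as deposited and open diamonds the same with the constant subtracted; the 11 genes with 0.66 in the adapted values sit from 0.75 to 1.37 as deposited and from 0.09 to 0.71 after subtraction.

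Sequences near the start sites are shown because a short motif was shared by most of the genes off the grid, a feature that the choice of members did not use. Promoters of 300 bases, 250 before and 50 after the start, were taken from RefSeq (GRCh38.p14), and 42 of the 48 genes matched. Both strands were searched for GCGCA and GCGC with any base between them (the site of NRF1), CCGGAAG (the site of ETS factors such as GABPA) and AANATGGCG (the site of YY1), which are known regulators of nuclear respiratory genes. The YY1 letters were found in 10 of 42 promoters (23.8%), against 3.37% of all 27305 promoters and 7.44% of those of tested rows. The NRF1 letters were found in 19.0% of the 42, against 6.28% of all and 12.3% of tested rows, and the ETS letters in 14.3%, against 10.7% and 20.6%. All 10 promoters with the YY1 letters belong to subunits, and none of the 10 assembly factor promoters held them. The sharing among genes off the grid is what was noticed and is given as counts only. Of the 12 promoters of genes off the grid, all subunits, 8 held the letters, and of the 20 promoters of subunits on the grid 2 did. The first base of the match lay 9 to 42 bases after the start in 9 of the 10 and before it in NDUFS8. Each match is given below 5′ to 3′ on the strand that reads AANATGGCG, with the motif in capitals and up to 10 bases on each side. The first 8 genes are off the grid and NDUFS3 and NDUFS8 are on it. A match is a description of these letters, not a bound site.
NDUFV2: AACATGGCGggccacactg
NDUFS1: tcgcttattcAATATGGCGgcctcggcta
NDUFS4: tgcctgcagcAAGATGGCGgcggtgtcaa
NDUFS6: ccagcggcgcAAAATGGCGgcggcgatga
NDUFA6: atgctttggcAAGATGGCGgggagcggcg
NDUFA7: tcgcggacggAAGATGGCGtccgccaccc
NDUFS7: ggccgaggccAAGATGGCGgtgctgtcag
NDUFA9: attgtgggaaAAGATGGCGgctgccgcac
NDUFS3: gcatctgagtAACATGGCGgcggcggcgg
NDUFS8: tccccaaaccAACATGGCGgccccctaca
Their positions in GRCh38.p14 are chr18:9102730-9102748 for NDUFV2 (minus strand), chr2:206159411-206159439 for NDUFS1 (plus), chr5:53560650-53560678 for NDUFS4 (plus), chr5:1801405-1801433 for NDUFS6 (plus) and chr22:42090729-42090757 for NDUFA6 (minus). They are chr19:8321343-8321371 for NDUFA7 (minus), chr19:1383914-1383942 for NDUFS7 (plus), chr12:4649114-4649142 for NDUFA9 (plus), chr11:47579079-47579107 for NDUFS3 (plus) and chr11:68030491-68030519 for NDUFS8 (plus). In 8 of the 10 genes the letters read along the gene, the exceptions being NDUFV2 and NDUFS1. The NRF1 letters came more than once in the promoters of NDUFB4, NDUFA8, NDUFA3 and ACAD9.

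In the N module, 5 of the 10 genes were called higher and none lower, against 30.7% and 26.2% of all rows tested. The median log2 fold change was 0.33. All 5 genes called higher, NDUFV2, NDUFS4, NDUFS6, NDUFA6 and NDUFA7, carry 0.66 in the adapted values. NDUFV2 holds an iron-sulfur cluster beside the NADH site and lies at chr18:9102699-9134341. Its values were 5.69, 5.73 and 5.57 in parental and 6.85, 6.82 and 6.84 in adapted samples, which do not overlap. The log2 fold change was 1.18 (standard error 0.06, limma, adjusted p = 1.16e-05), and 0.52 with the constant subtracted (adjusted p = 0.000419). NDUFA7, an accessory subunit, rose by 0.94, and by 0.28 after subtraction (adjusted p = 0.0165). The accessory subunits NDUFS4 (0.19, adjusted p = 0.068), NDUFS6 (0.17, adjusted p = 0.158) and NDUFA6 (0.09, adjusted p = 0.275) were not past the threshold after subtraction. With the constants subtracted, the module had 2 of 10 genes called higher, none called lower and a median of 0.003. The shares of all rows were then 30.3% higher and 26.0% lower.

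The 4 N module genes on the grid had log2 fold changes of -0.08 for NDUFV1, -0.18 for NDUFV3, -0.18 for NDUFA2 and -0.13 for NDUFA12, and none was past the threshold. NDUFV3 passed it without adapted replicate 3 (-0.22, adjusted p = 0.0297), after quantile normalization (adjusted p = 0.0448) and after centring on the sample median (0.0425). NDUFV1, which binds NADH and the flavin, had the highest level of the 48 genes in parental cells. Its values were 6.77, 6.82 and 6.75 in parental and 6.79, 6.75 and 6.56 in adapted samples, which overlap (limma, adjusted p = 0.397). On the FPKM scale its mean was 109 in parental and 103 in adapted samples, and NDUFB4 came next in parental cells at a mean of 81.0.

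NDUFS1, the largest subunit and a carrier of iron-sulfur clusters, was among the complex I proteins that the study blotted. Its values were 4.07, 3.96 and 4.15 in parental and 4.10, 3.69 and 3.34 in adapted samples. Adapted replicate 1 lay within the parental range and the other adapted samples below it. As deposited it differed by -0.35 on the log2 scale (standard error 0.18, limma, adjusted p = 0.127), and by -0.15 with 0.2 subtracted from the parental values (adjusted p = 0.499). Without adapted replicate 1 it was -0.54 and past the threshold as deposited (adjusted p = 0.00411).

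In the Q module, 2 of the 5 genes were called higher and none lower, with a median of 0.32. With the constants subtracted 1 was called higher and the median was 0.14. The shares of all rows tested were 30.7% higher and 26.2% lower as deposited, and 30.3% and 26.0% with the constants subtracted. NDUFS7 carries the last iron-sulfur cluster before ubiquinone and lies at chr19:1383907-1395584. Its values were 3.93, 3.66 and 3.75 in parental and 4.82, 5.14 and 4.96 in adapted samples, with no overlap. It rose by 1.20 (standard error 0.10, limma, adjusted p = 9.86e-05), or by 0.54 with 0.66 subtracted (adjusted p = 0.00407). NDUFA9, an accessory subunit beside the quinone site, rose by 0.75 as deposited, and its log2 fold change with 0.66 subtracted was 0.09 (adjusted p = 0.394).

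NDUFS3, a core subunit that the study also blotted, is on the grid and was not past the threshold. Its values were 4.95, 4.71 and 4.36 in parental and 5.02, 4.98 and 4.98 in adapted samples. All adapted values lay above all parental ones, and the parental values were spread 0.30 (SD) against 0.02. The log2 fold change was 0.32 (standard error 0.14, limma, adjusted p = 0.0806), and it was past the threshold without parental replicate 1 (0.46, adjusted p = 0.0186). NDUFS8, an iron-sulfur subunit, and NDUFA5, an accessory subunit, had log2 fold changes of -0.07 and 0.14, neither past the threshold. Without adapted replicate 1, NDUFS8 was called lower (-0.15, adjusted p = 0.0187).

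Over the 5 iron-sulfur subunits of the list, NDUFV1, NDUFV2, NDUFS1, NDUFS7 and NDUFS8, 2 were called higher and none lower. The 2 genes called higher are NDUFV2 and NDUFS7, both with 0.66 in the adapted values. Both were still called higher after subtraction, as were 30.3% of all rows.

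The proximal membrane arm joins the Q module and holds the entry of the proton path. There 3 of the 9 genes were called higher (33.3%) and 1 lower (11.1%), against 30.7% and 26.2% of all rows tested. The median was -0.09. NDUFC2, a membrane subunit at chr11:78068297-78079862, had the largest log2 fold change of the 48 genes. Its values were 4.10, 4.08 and 4.22 in parental and 5.55, 5.53 and 5.43 in adapted samples, with no overlap. It rose by 1.37 (standard error 0.07, limma, adjusted p = 8.16e-06), or by 0.71 with 0.66 subtracted (adjusted p = 0.00014). A row for the readthrough transcript NDUFC2-KCTD14 stood at 0, 0.95 and 0 in parental and 0.32, 0.23 and 0.28 in adapted samples. NDUFA8, a subunit on the intermembrane side, rose by 0.98, or by 0.32 with 0.66 subtracted (adjusted p = 0.0128).

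NDUFC1, the small partner of NDUFC2, is on the grid. Its values were 3.70, 3.62 and 3.0 in parental and 3.96, 4.05 and 4.38 in adapted samples, with no overlap. It rose by 0.69 (standard error 0.20, limma, adjusted p = 0.0199), and was not past the threshold without adapted replicate 3 (0.56, adjusted p = 0.0675). NDUFA1, a small membrane subunit encoded on the X chromosome, had values of 5.16, 5.31 and 5.41 in parental and 5.14, 4.75 and 4.47 in adapted samples. The groups did not overlap, although adapted replicate 1 was close to parental replicate 1. It fell by 0.51 (standard error 0.16, limma, adjusted p = 0.0309). This call was lost in 4 of the 6 fits that left out a sample (adjusted p 0.0714 to 0.0996), those without parental replicate 2 or 3 or adapted replicate 2 or 3, and with no filter on low values (0.0646). The other 5 genes of this arm, NDUFA3, NDUFA10, NDUFA11, NDUFA13 and NDUFS5, had log2 fold changes of -0.18 to 0.02, none past the threshold. Calls of a lower level appeared for NDUFA3 without adapted replicate 3 (-0.27, adjusted p = 0.0426), NDUFA11 without parental replicate 2 (-0.27, adjusted p = 0.024) and NDUFS5 without adapted replicate 1 (-0.17, adjusted p = 0.0456).

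Along the distal membrane arm, which holds further proton channels, 3 of the 12 genes were called higher and 2 lower, with a median of 0.03. The shares of all rows tested were 30.7% higher and 26.2% lower, so neither count was above the background. NDUFB3, an accessory membrane subunit, had values of 4.82, 4.83 and 4.55 in parental and 5.76, 5.86 and 5.96 in adapted samples. It rose by 1.13 (standard error 0.10, limma, adjusted p = 8.42e-05), or by 0.47 with 0.66 subtracted (adjusted p = 0.00483). NDUFAB1, the mitochondrial acyl carrier protein, which also serves fatty acid and iron-sulfur cluster synthesis, rose by 0.85. Its log2 fold change was 0.19 with 0.66 subtracted and was then not past the threshold (adjusted p = 0.0847).

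NDUFB8, at chr10:100523729-100529923, is a membrane subunit often used on blots as a readout of assembled complex I, and the study blotted it. All of its values are on the grid, at 5.83, 5.48 and 5.43 in parental and 6.10, 6.05 and 6.15 in adapted samples, with no overlap. It rose by 0.52 (standard error 0.11, limma, adjusted p = 0.00493) and kept this call in all 6 fits that left out a sample, with log2 fold changes of 0.45 to 0.65. It is the 1 gene of the 4 that rose on the grid to do so.

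NDUFB5, an accessory membrane subunit on the grid, had values of 5.41, 5.21 and 5.31 in parental and 5.06, 5.0 and 4.68 in adapted samples, with no overlap. It fell by 0.40 (standard error 0.11, limma, adjusted p = 0.0168). The adjusted p was 0.0646 without parental replicate 1 and 0.0515 without parental replicate 3. NDUFB9, an accessory subunit of the same arm, fell by 0.30 (adjusted p = 0.0295) and lost this call without parental replicate 2 or 3 or adapted replicate 2 or 3 (adjusted p 0.0838 to 0.0989) and with no filter on low values (0.0513). NDUFB2 had parental values off the grid, at 5.80, 6.13 and 6.12, and adapted values of 6.18, 5.78 and 5.37. The deposited values gave a log2 fold change of -0.24 (adjusted p = 0.338), or -0.04 with 0.2 subtracted, and it was called lower without adapted replicate 1 (-0.44, adjusted p = 0.031). The other 6 genes of this arm, NDUFB1, NDUFB4, NDUFB6, NDUFB7, NDUFB10 and NDUFB11, had log2 fold changes of -0.26 to 0.22, none past the threshold. NDUFB1 was called lower without parental replicate 1 (-0.37, adjusted p = 0.0262) or adapted replicate 1 (-0.34, adjusted p = 0.0289).

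**Figure D2:**
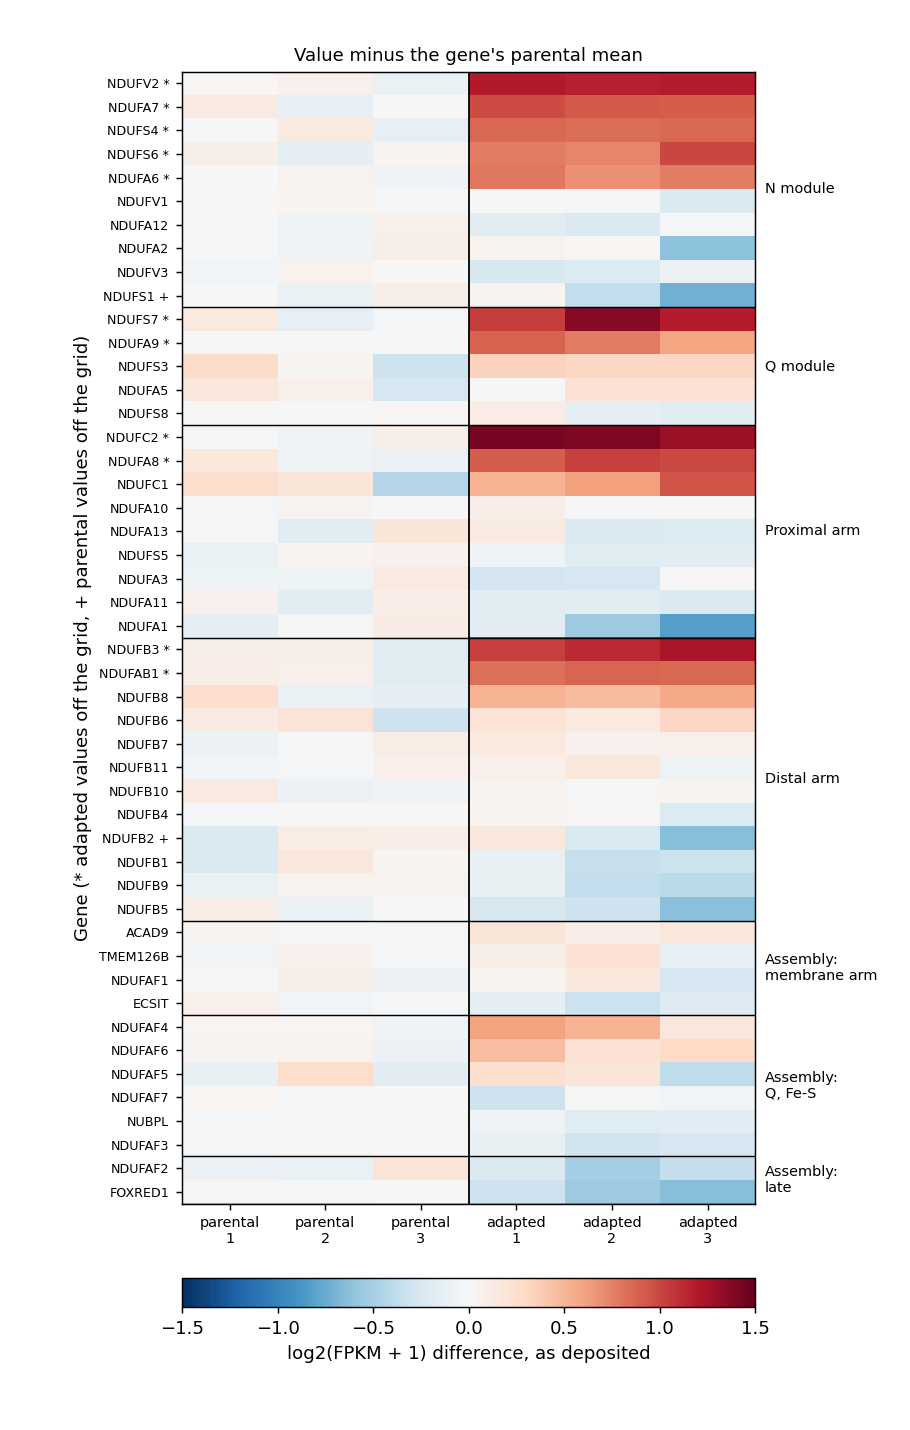
Difference of each sample's value from the gene's parental mean (color, log2(FPKM + 1), as deposited) for the 48 genes (rows) in the 3 parental and 3 adapted samples (columns); stars mark adapted and plus signs parental values off the grid. The 11 starred genes are high in all 3 adapted samples, and in NDUFS1, NDUFB2 and NDUFA1 adapted replicate 1 lies nearest to the parental level. Among all rows called, adapted replicate 1 was the adapted sample nearest to the parental mean in 54.8%.

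Among the assembly factors, the late factors FOXRED1 and NDUFAF2 both fell, where 26.2% of all rows tested were called lower. FOXRED1, a flavoprotein needed to complete the membrane arm, lies at chr11:126269154-126278126. Its values were 4.30, 4.25 and 4.29 in parental and 3.97, 3.73 and 3.63 in adapted samples, with no overlap. It fell by 0.50 (standard error 0.09, limma, adjusted p = 0.003) and kept the call in all 6 fits that left out a sample, at -0.59 to -0.43. It is the 1 gene of the 7 that fell to do so. NDUFAF2, a paralog of the subunit NDUFA12 that holds its place during assembly, had values of 3.99, 3.99 and 4.27 in parental and 3.86, 3.57 and 3.73 in adapted samples. It fell by 0.36 (adjusted p = 0.0232) and lost this call without parental replicate 3, adapted replicate 2 or adapted replicate 3 (adjusted p 0.0554 to 0.0764).

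Of the 6 factors that act on the Q module and on iron-sulfur delivery, 2 rose (33.3%) and 1 fell (16.7%). Of all rows tested, 30.7% were called higher and 26.2% lower. NDUFAF4, an early Q module factor, was the lowest of the 48 genes in parental cells at a mean FPKM of 2.46, with NDUFAF5 next at 2.93, and the values of these genes overlapped. NDUFAF4 stood at 1.81, 1.82 and 1.74 in parental and 2.39, 2.31 and 1.96 in adapted samples. It rose by 0.43 (standard error 0.12, limma, adjusted p = 0.0178). The adjusted p was 0.0628 without parental replicate 3 and 0.0598 without adapted replicate 2. NDUFAF6, another early factor, rose by 0.33 (adjusted p = 0.0115), and its adjusted p was 0.0504 without parental replicate 3. NDUFAF3, the partner of NDUFAF4, went the other way. Its values were 4.15, 4.20 and 4.19 in parental and 4.07, 3.88 and 3.93 in adapted samples, a fall by 0.22 (adjusted p = 0.025) that was past the threshold in only 1 of the 6 fits that left out a sample, the fit without adapted replicate 1 (in the other 5, adjusted p 0.0592 to 0.0906). NDUFAF5, which had the lowest mean over all 6 samples, stood at 1.86, 2.22 and 1.81 in parental and 2.22, 2.15 and 1.59 in adapted samples, which overlap (log2 fold change 0.02). The methyltransferase NDUFAF7 and the iron-sulfur carrier NUBPL had log2 fold changes of -0.11 and -0.13, neither past the threshold, and NUBPL was called lower without adapted replicate 1 (-0.17, adjusted p = 0.0325).

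Of the 4 factors of the membrane arm, which form the intermediate that builds the proximal arm, 1 fell and none rose. ECSIT had values of 4.69, 4.57 and 4.59 in parental and 4.48, 4.30 and 4.43 in adapted samples. It fell by 0.22 (limma, adjusted p = 0.0323), a call that was likewise kept only without adapted replicate 1 (in the other 5 fits, adjusted p 0.051 to 0.124) and was lost after rescaling to an equal sum without mitochondrially encoded rows (0.0728). ACAD9, an acyl-CoA dehydrogenase that serves as its partner, had a log2 fold change of 0.15 (adjusted p = 0.0556, or 0.0493 without adapted replicate 2, 0.0436 with no filter, and 0.0443 and 0.023 after rescaling to an equal sum with and without mitochondrially encoded rows), NDUFAF1 of -0.02 and TMEM126B of 0.06. A further list of 8 genes with roles in complex I assembly had no gene called higher and 1 lower (12.5%), both under the shares of all rows. The lower gene was COA1 (-0.22, adjusted p = 0.0126), and the median of the list was 0.09. COA1 lost this call without parental replicate 2 or 3 (adjusted p = 0.0674 and 0.0547). DMAC1 of the same list was called higher without adapted replicate 3 (0.26, adjusted p = 0.0354).

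The 7 subunits encoded by mitochondrial DNA are all on the grid. Of these, 4 were called higher (57.1%) and none lower, against 30.7% and 26.2% of all rows tested. The median log2 fold change was 0.56. The largest rise was in MT-ND1, the subunit beside the quinone site (0.83, limma, adjusted p = 0.000397). MT-ND5, a proton-pumping subunit of the distal arm, had values of 10.1, 9.91 and 10.0 in parental and 10.7, 10.5 and 10.8 in adapted samples, with no overlap. It rose by 0.65 (standard error 0.10, limma, adjusted p = 0.00119). MT-ND4 and MT-ND4L, which share a transcript, had log2 fold changes of 0.08 (adjusted p = 0.633) and 0.04 (adjusted p = 0.782), and MT-ND6, from the other strand, had 0.47 (adjusted p = 0.0704, or 0.0448 without parental replicate 1). The share of the summed FPKM held by mitochondrially encoded rows was 8.66%, 8.07% and 8.63% in parental and 10.9%, 9.73% and 12.2% in adapted samples.

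Complex I was set beside the nuclear subunits of complexes II to V, 39 genes. There 23 were called higher and 4 lower (59.0% and 10.3%), against 30.7% and 26.2% of all rows tested. The median log2 fold change was 0.41. Of these genes 17 (43.6%) were off the grid, and with the constants subtracted 18 were called higher and 2 lower, with a median of 0.25. The 22 genes of complexes II to V on the grid had 10 called higher and 2 lower and a median of 0.13. The 23 complex I subunits on the grid had 2 called higher (8.70%), 3 lower (13.0%) and a median of -0.08. Of all 12515 tested rows on the grid, 3773 were called higher and 3296 lower. Single samples decided much of the counts for the 22 and the 23 genes. The 10 was 5 without parental replicate 2 and 6 without parental replicate 3, where the complex I subunits on the grid had 2 called higher in both fits and 2 and 0 lower. Without adapted replicate 1 the 22 genes had 9 called higher and 3 lower, and the 23 had 2 and 6. The 23 had 1 called lower without adapted replicate 2 and 1 called higher without adapted replicate 3. The difference between these groups of genes was not tested. As deposited, the largest log2 fold change was 1.13 in complex II (SDHB), 1.14 in complex III (CYC1), 1.13 in complex IV (COX6C) and 1.13 in complex V (ATP5MC3), each with adapted values that carry 0.66. With the constant subtracted these were 0.47, 0.48, 0.47 and 0.47, and the largest of the 39 was then COX8A of complex IV, which is on the grid. Its values were 7.02, 6.64 and 6.64 in parental and 7.68, 7.59 and 7.69 in adapted samples, a rise by 0.89 (limma, adjusted p = 0.000469). COX7B (-0.69) and UQCRH (-0.48) fell most, and both are on the grid.

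**Figure D3:**
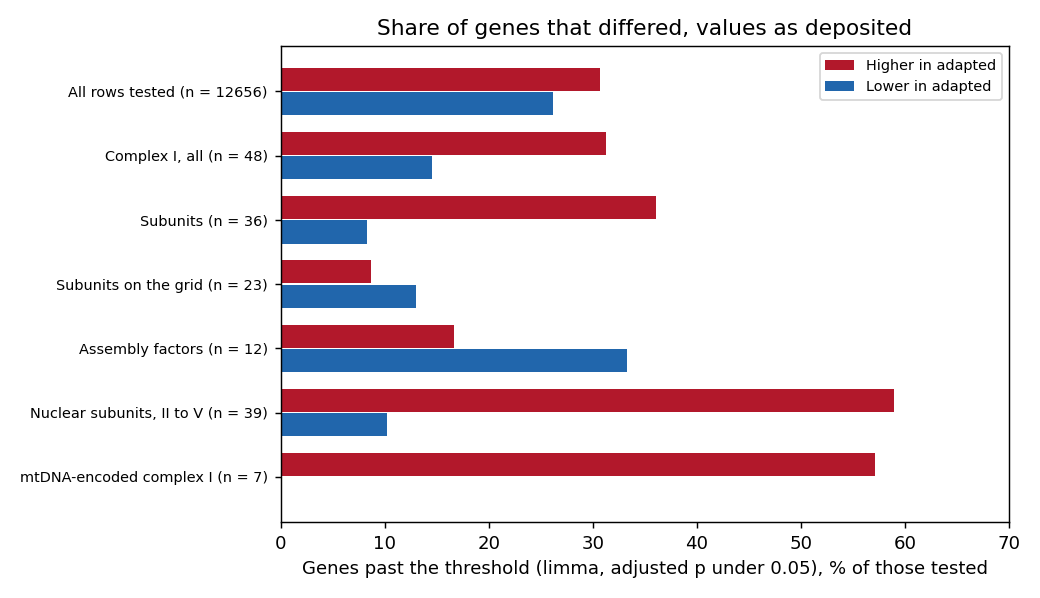
Share of genes called higher and lower in adapted cells (x axis, % of those tested, values as deposited) for complex I and its parts and for the lists set beside it. The 48 complex I genes are at 31.2% higher and 14.6% lower, all rows tested at 30.7% and 26.2%, and complexes II to V at 59.0% and 10.3%.

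Of 10 regulators of respiratory genes, 9 passed the filter. None was called higher and 2 were called lower (22.2%), against 30.7% and 26.2% of all rows tested. Their median log2 fold change was -0.14. The count of lower genes was 4 without adapted replicate 1 and 1 without adapted replicate 3 or any of the parental replicates. GABPB1, a subunit of the ETS factor GABP, fell by 0.32 (limma, adjusted p = 0.00426) and kept this call in every fit that left out a sample. PPRC1, a coactivator of the PGC-1 family, fell by 0.32 (adjusted p = 0.0402) and lost this call in 4 of the 6 fits, those without any of the parental replicates or without adapted replicate 3 (adjusted p 0.05 to 0.114). The only positive log2 fold change of the 9 was the 0.05 of YY1, which was not past the threshold (adjusted p = 0.549). NRF1 had a log2 fold change of -0.19 (adjusted p = 0.0632, or 0.024 without adapted replicate 1). The most negative value was the -0.36 of ESRRA, a nuclear receptor (adjusted p = 0.0594, or 0.00183 without adapted replicate 1).

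The spread between replicates was also recorded, a comparison chosen after the values were seen. Over all rows tested the SD of the 3 samples was smaller in adapted than in parental cells in 20.1%. In the complex I genes this was so for 18 of 48 (37.5%), for 17 of the 36 subunits (47.2%) and for 1 of the 12 assembly factors (8.33%). Among the 11 genes with 0.66 in the adapted values it was so for 7 (63.6%), against 49 of all 117 tested rows with a constant in the adapted values (41.9%), and among the 35 on the grid for 11 (31.4%). Subtracting a constant leaves an SD as it was. NDUFV2 had SDs of 0.08 in parental and 0.01 in adapted samples, NDUFS4 had 0.13 and 0.02, and NDUFA9 went the other way with 0.01 and 0.15.

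**Figure D4:**
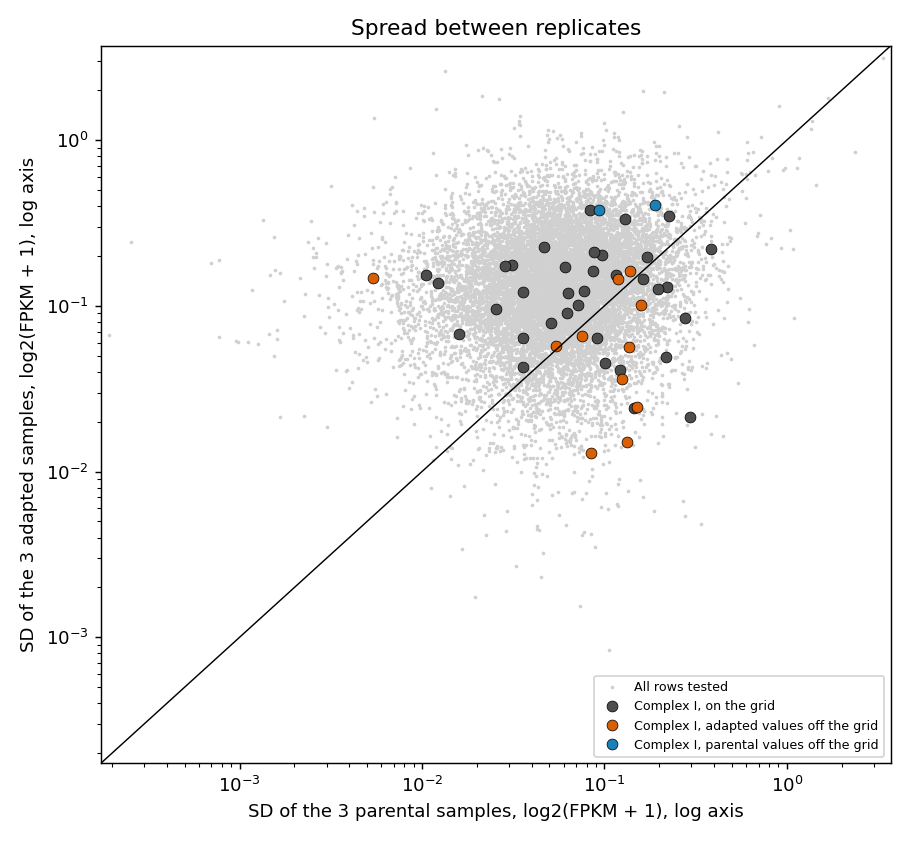
SD of the 3 parental samples (x axis) against SD of the 3 adapted samples (y axis), log2(FPKM + 1), both on log axes, for all rows tested (grey) and the 48 complex I genes (colored by the grid). Points below the diagonal have the smaller SD in adapted cells, which holds for 18 of the 48 genes and 20.1% of all rows.

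Neighbouring genes and copies limit some of these values. The exons of 28 of the 48 genes overlap those of another gene in GENCODE v29, 14 on the same and 22 on the opposite strand, and whether the counting used strand is not stated. For 18 of the genes GENCODE v29 names 58 pseudogenes, none of which has a row in the table, so reads shared with them cannot be told apart.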

How the data were processed

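RNA-sequencing values of 3 parental and 3 adapted samples of H1975 cells were analyzed. The authors deposited log2 values, taken from their 6-decimal grid as log2(FPKM + 1). The unit, quantifier and annotation are not given in the sources used here. The submitters' processing notes name hg38, Bowtie2 2.1.0, STAR and edgeR without roles, and the study's methods name DESeq2, which needs counts. Columns were matched to samples by group and replicate number.

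Rows with a mean of at least 1 (12656) were tested with limma 3.58.1 (R 4.3.3), using lmFit and an eBayes step with trend, no pairing, and p-values adjusted by Benjamini-Hochberg over all of these rows against a threshold of 0.05. A log2 fold change on this scale understates the change of low genes. Rows were called off the grid at a distance above 0.001 of a step of 1e-06, and 99 constants from 0.01 to 0.99 were tried, of which exactly 1 returned each of the 147 rows. It is not known whether subtracting them returns values the table once held. Both the search and the fit were tested on simulated data.

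Although the members were matched by symbol alone, complex I, its members, the lists, motifs and alternatives were chosen with earlier results of these data known. Values were given by sample for the blotted subunits, for the largest rise and fall past the threshold on the grid and the largest change off it in each of the 7 lists of members, and for the highest and lowest genes, and the choice of others named here followed their values. Alternatives covered a pseudocount of 0.1, other filters and scalings, other eBayes settings and thresholds, a replicate block, leaving out each sample, and leaving out or correcting rows off the grid. Positions and promoters are from RefSeq (GRCh38.p14) and exon overlaps from GENCODE v29.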

Additional observations from a re-analysis of the deposited data

How the results depend on the processing

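With the rows off the grid left out (35 genes tested, by construction without 11 that were higher), the count called higher went from 15 to 4 against 7 called lower, and the median from 0.02 to -0.078, a change of sign and a move larger than the 0.080 SD between replicates of the sample median. The count called lower, 7, was 1 at an adjusted p under 0.01, 0 with a log2 fold change of at least 0.58 in size added to the threshold, and 4 with a replicate block. Across the 6 fits that each left out a sample, the count called higher ranged from 13 to 16, the count called lower from 1 to 13 and the median from -0.03 to 0.07. The median was -0.02 after quantile normalization and -0.002 after centring on the sample median. The cause of these differences was not tested. The replicate numbers do not show a pairing of the samples. The correlations of same-numbered parental and adapted deviations from the group means were -0.05, -0.03 and -0.02, and the block moved the calls of all rows from 7202 to 6761. The complex I genes that lost their calls with the block were NDUFA1 (adjusted p = 0.0538), NDUFB9 (0.0648) and NDUFAF3 (0.0572). Rescaling to an equal sum without mitochondrially encoded rows moved the median of all rows to 0.07. With 3 samples a group and an unknown depth, differences within the replicate spread were not detectable.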
